A study of Glycine max with 47 samples.

Results

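Transcript levels of 6 genes of the circadian clock were followed in whole roots of soybean (Glycine max). They were selected by identifier: 4 genes named LHY (Glyma.16g017400, Glyma.07g048500, Glyma.19g260900 and Glyma.03g261800), PRR3b (Glyma.12g073900) and ELF3/J (Glyma.04g050200). These are 6 of the 55983 genes of the table, and all 6 belong to the 43122 genes with a level of 0.5 CPM or more in 1 or more libraries (CPM, the count of a gene scaled to a common library total). By their identifiers they lie on chromosomes 16, 7, 19, 3, 12 and 4. The names are those given with the identifiers, because 0 of the 55983 identifiers could be matched to the RefSeq gene table used here.

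The 47 RNA-seq libraries cover 2 cultivars, 4 treatments and 2 time points, with 3 plants in each group and 2 in the MN1806CN control at 30 days post infestation (dpi). The cultivars were MN1806CN, which is resistant to the soybean cyst nematode population used, and PI518671 (Williams 82), which is susceptible to it, and both are susceptible to the soybean aphid. Plants of the SCN:SBA treatment received both pests, about 2000 eggs of the soybean cyst nematode (SCN, Heterodera glycines) in the soil mixture of each pot and 15 soybean aphids (SBA, Aphis glycines) at a young vegetative stage. SCN plants received the eggs alone, SBA plants the aphids alone, and control plants neither, and all 16 groups grew in heated water baths in 1 greenhouse. Days were counted from the aphid infestation, so the nematodes had been present longer than the stated dpi. Roots of 30 dpi came from one water bath and roots of 5 dpi from the other, so time point and water bath cannot be told apart. The hour of the day at which roots were frozen was not given in the sources used here.

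The plant clock is a set of genes that repress each other in turn over the day. LHY encodes a Myb-type transcription factor whose transcript peaks around dawn in Arabidopsis and soybean and which represses genes of the evening. Pseudo-response regulators, the family of PRR3b, follow during the day and repress LHY-type genes, and ELF3 is a scaffold of the evening complex, which represses its targets at night. In soybean, J is an ELF3 gene known for its control of flowering time, and LHY and PRR3 genes act in the same flowering pathway. The clock also runs in roots.

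Library totals ranged from 8472717 to 47902174 estimated counts, with a median of 18350922. The smallest count of a clock gene in any library was 10 (Glyma.03g261800) and the largest 6691 (PRR3b), and the filter limit of 0.5 CPM stands for 4.24 counts at the lowest library total and 24.0 at the highest. The standard errors and SDs given below include variation between plants as well as counting error. Levels are given as CPM on library totals scaled by the trimmed mean of M-values (TMM), and levels of different genes are not compared, because no transcript lengths were used. A gene was called changed at an adjusted p under 0.05 (edgeR quasi-likelihood test, two-sided, Benjamini-Hochberg over 43122 genes). Where groups are said not to overlap, this describes the plants shown, and the share of all genes without overlap was not counted. A whole root holds many cell types, so fewer cells of a type and less RNA per cell cannot be told apart, and root cell type markers were not analysed here.

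Reads were shared between members. Reads that fit several transcripts were split by the quantification program, which leaves a fractional estimated count. Glyma.16g017400 had a fractional count in 46 of 47 libraries, and in 45 of those 46 its sum with Glyma.07g048500 was whole (within 0.0025). Glyma.19g260900 and Glyma.03g261800 were fractional in 27 libraries each, with a whole sum in 26. PRR3b was fractional in all 47 and summed to a whole count with the unplaced gene Glyma.U034500_1 in 42. ELF3/J was fractional in 1. The level of a single LHY gene or of PRR3b is thus partly the program's split between genes with shared sequence, whereas that of ELF3/J hardly is.

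ELF3/J varied most between groups, in large part through 1 group. Its group mean ran from 203.9 CPM in PI518671 control roots at 5 dpi down to 19.01 CPM in MN1806CN control roots at 30 dpi, a 10.7-fold range, against 5.27-fold for Glyma.19g260900, 4.06-fold for Glyma.03g261800, 2.58-fold for Glyma.07g048500, 2.40-fold for Glyma.16g017400 and 2.27-fold for PRR3b. Groups accounted for 78.5% of the variance of ELF3/J over libraries on the log2(CPM + 1) scale. The share was 60.8% for Glyma.19g260900, 54.0% for Glyma.03g261800, 40.4% for Glyma.07g048500, 35.9% for Glyma.16g017400 and 29.4% for PRR3b, against a median of 64.3% over 34389 genes with a mean of at least 1 CPM. Only 0.9% of those genes had a smaller share than PRR3b, and 80.4% had a smaller share than ELF3/J. The shares were not adjusted for the number of groups. With 16 groups of 2 or 3 libraries, a sizeable share arises even for a gene that does not differ between groups. The lower shares are thus no sign of a group difference. When the 16 group means of a gene were put in order, all 15 pairs of neighbours overlapped in their library values, for each of the 6 genes. Neighbours in such an order are the groups closest in mean, so their overlap was likely beforehand. It does not show that groups farther apart overlap, and it was not counted for other genes. With 1 of the 3 PI518671 control libraries of 5 dpi left out, the range of group means was 8.52-fold to 13.7-fold for ELF3/J and 4.25-fold to 6.69-fold for Glyma.19g260900. That group was the highest for both genes. The next highest group mean of ELF3/J was 87.1 CPM, in MN1806CN control roots at 5 dpi, so its wide range rests largely on that group. For Glyma.19g260900 the next highest was 8.50 CPM, in MN1806CN SCN:SBA roots at 30 dpi, against 10.55 CPM.

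**Figure D1:**
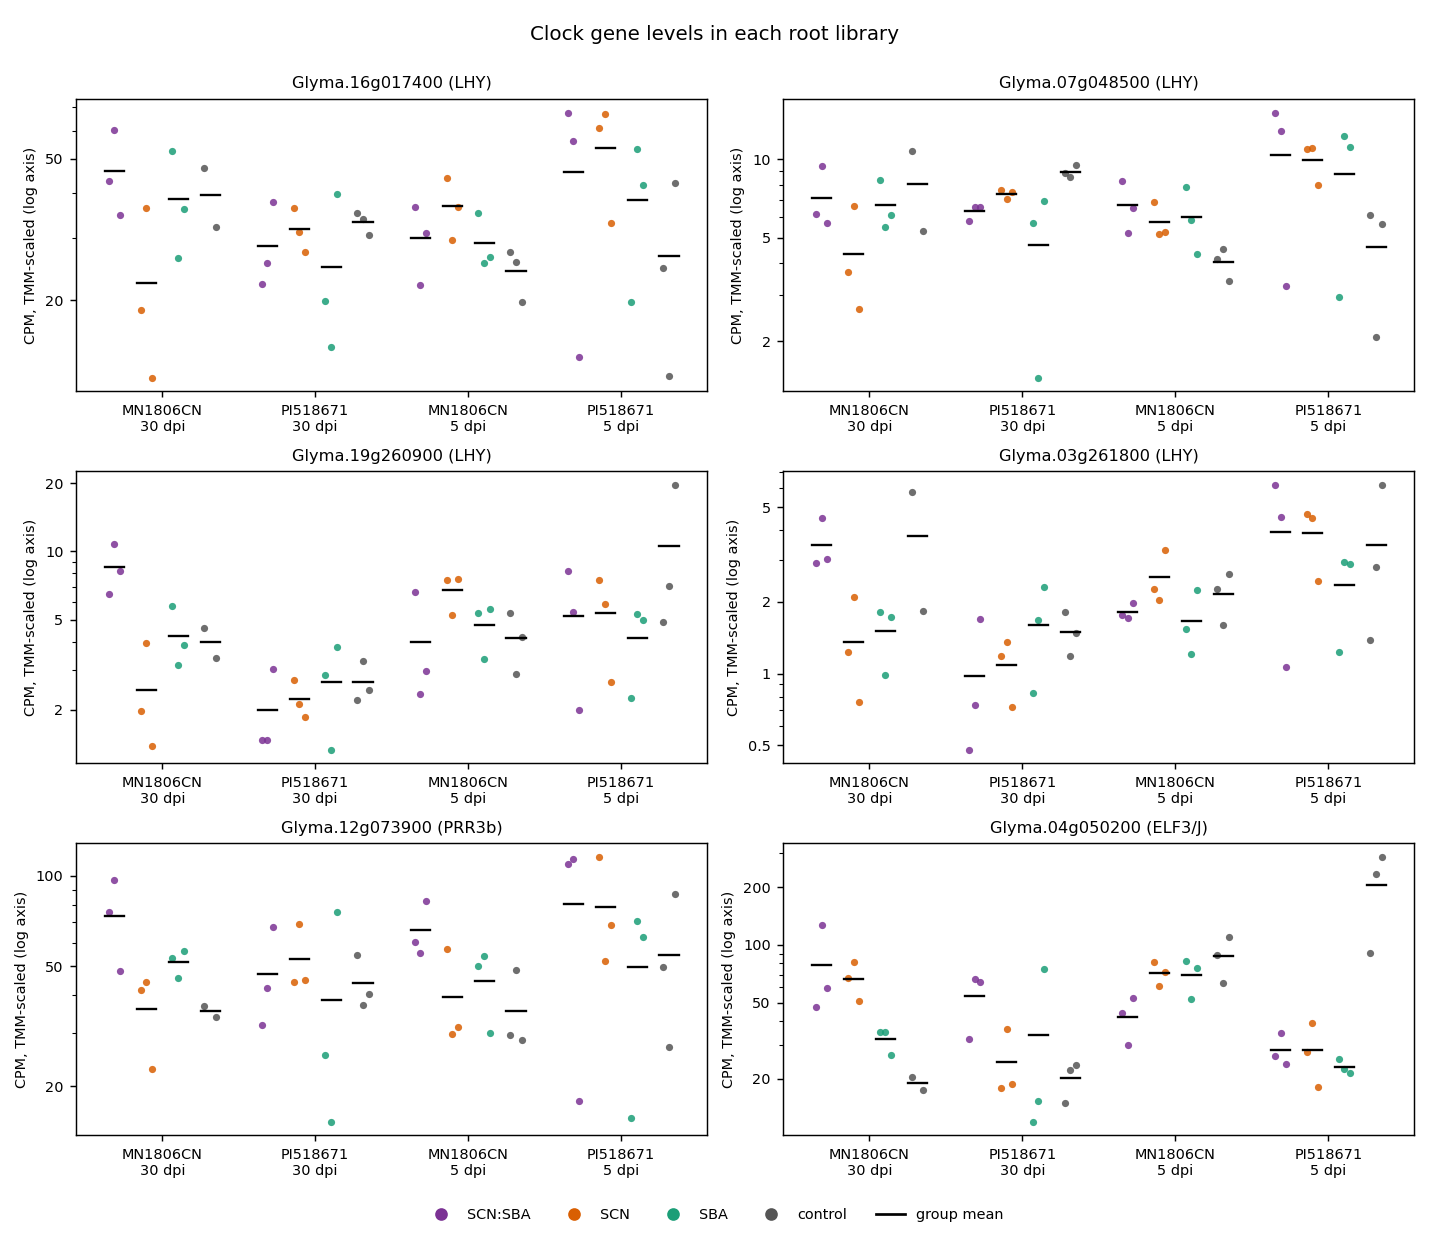
Level of each clock gene in every library, in CPM on TMM-scaled totals (log axis), by cultivar, time point and treatment. Points are libraries and black lines are group means. ELF3/J stands highest in PI518671 control roots at 5 dpi (90.5 to 288 CPM), and PRR3b and the LHY genes show wide scatter within groups.

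The plants of a group differed widely from each other in these genes. The SD within groups on the log2(CPM + 1) scale was 0.704 for PRR3b, larger than that of 92.0% of genes, 0.574 for Glyma.16g017400, 0.569 for ELF3/J, 0.531 for Glyma.07g048500, 0.510 for Glyma.19g260900 and 0.464 for Glyma.03g261800, against a median of 0.373 over all genes. PRR3b read 109, 114 and 17.9 CPM in the 3 PI518671 SCN:SBA plants at 5 dpi, and 25.3, 15.2 and 75.5 CPM in the 3 PI518671 SBA plants at 30 dpi. In both groups replicate 3 stood apart from the other 2 plants. The PI518671 control group at 5 dpi also stood apart as a whole, in that many genes differed between it and every group it was compared with, and the values that this group sets are followed by the range they take when 1 of its libraries is left out.

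In the 46 comparisons made, 20 of the 276 tests of a clock gene were called, 11 higher and 9 lower. An unadjusted p under 0.05 was found in 53. The share of all genes called ran from 0% to 40.4% over these comparisons and is given with each below. Whether clock genes were called more often than other genes was not tested. ELF3/J gave 15 of the 20 calls (8 higher and 7 lower), Glyma.19g260900 gave 3 and Glyma.03g261800 gave 2. Many of these calls use the same PI518671 control libraries of 5 dpi and are thus not independent of each other. For ELF3/J they are all its calls against control in PI518671 and its call for the SCN-by-SBA difference given below. Its calls between cultivars in control roots, in the response to treatment and over time in PI518671 also use them. So does the time call of Glyma.19g260900. The number of calls is thus no count of separate responses. Glyma.16g017400, Glyma.07g048500 and PRR3b gave 0 calls in 138 tests in the main edgeR fits, with 8 unadjusted p under 0.05 and adjusted p from 0.0558 upward. Other edgeR settings did give calls. Glyma.07g048500 had 1 with all libraries in 1 fit and 1 with the 2 groups alone, and PRR3b had 1 with the replicate number as a block. DESeq2 called 0, 0 and 2 of the 46 comparisons of these 3 genes. A missed threshold does not show that these genes were equal between groups.

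The first question of the design was how either pest, or both, changed root expression in each cultivar. In PI518671 at 5 dpi, the evening gene ELF3/J fell in all 3 treatments. It read 26.4, 34.8 and 24.0 CPM in SCN:SBA roots, 27.5, 39.1 and 18.1 CPM in SCN roots and 25.5, 22.5 and 21.6 CPM in SBA roots, against 90.5, 233 and 288 CPM in control roots. Every treated plant was below every control plant. The log2 fold change was -2.88 ± 0.46 (SE; adjusted p = 0.00232) for SCN:SBA, -2.89 ± 0.46 (adjusted p = 0.00149) for SCN and -3.20 ± 0.47 (adjusted p = 0.00315) for SBA. All 3 calls held when any 1 of the 12 libraries was left out, with an adjusted p of at most 0.0210. Without control replicate 1, 2 or 3, the log2 fold changes lay between -3.26 and -2.55 for SCN:SBA, -3.27 and -2.51 for SCN and -3.58 and -2.89 for SBA.

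The 3 comparisons share the same 3 control libraries. Expression against these controls differed in a large share of all genes, with 21.5% of genes called for SCN:SBA, 23.6% for SCN and 11.6% for SBA, and 1 of the 6 clock genes was called in each. Between treated groups of the same cultivar and time point, 0% of genes were called for SCN:SBA against SCN and 0.00464% for SCN:SBA against SBA, and 0 clock genes in both. There ELF3/J differed by 0.01 ± 0.43 and 0.32 ± 0.43 on the log2 scale.

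The LHY genes and PRR3b were not called in PI518671 at 5 dpi and scattered widely between plants. Glyma.16g017400 read 67.5, 56.2 and 13.8 CPM in SCN:SBA roots, 61.1, 66.8 and 33.0 CPM in SCN roots and 19.7, 53.2 and 42.2 CPM in SBA roots, against 24.6, 12.2 and 42.8 CPM in control roots. Each treatment overlapped with control, although 2 of the 3 SCN plants, 2 of the 3 SCN:SBA plants and 1 of the 3 SBA plants were above all control plants. Its log2 fold changes were 0.77 ± 0.59, 1.01 ± 0.59 and 0.49 ± 0.58 for SCN:SBA, SCN and SBA (adjusted p of 0.369, 0.23 and 0.60). Glyma.07g048500 differed by 1.17 ± 0.60, 1.12 ± 0.60 and 0.90 ± 0.60 in the same order (lowest adjusted p = 0.179), and with all 47 libraries in 1 fit the first of these was called (log2 fold change 1.17, adjusted p = 0.0482). With 1 control library left out, the values of Glyma.16g017400 ran from 0.18 to 1.60 and those of Glyma.07g048500 from 0.58 to 1.36, none of them called.

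Of the other LHY pair, Glyma.19g260900 had negative fold changes in the same plants, none of them called. It read 8.20, 5.41 and 2.01 CPM in SCN:SBA roots, 7.51, 5.84 and 2.65 CPM in SCN roots and 2.25, 5.28 and 4.97 CPM in SBA roots, against 4.89, 7.06 and 19.7 CPM in control roots. The groups overlap, and control replicate 3 is the highest library of all 47. The log2 fold changes were -1.05 ± 0.63, -1.01 ± 0.63 and -1.40 ± 0.63 (lowest adjusted p = 0.159, for SBA, and 0.0410 with all libraries in 1 fit). Without control replicate 3 they were -0.22, -0.14 and -0.58, and without control replicate 1 -1.42, -1.38 and -1.77. Glyma.03g261800 differed by 0.15 ± 0.65, 0.13 ± 0.66 and -0.62 ± 0.66, and PRR3b by 0.54 ± 0.68, 0.53 ± 0.68 and -0.19 ± 0.68, none of which was called. With 1 control library left out, the values of Glyma.03g261800 ran from -1.02 to 0.91 and those of PRR3b from -0.47 to 1.09.

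**Figure D2:**
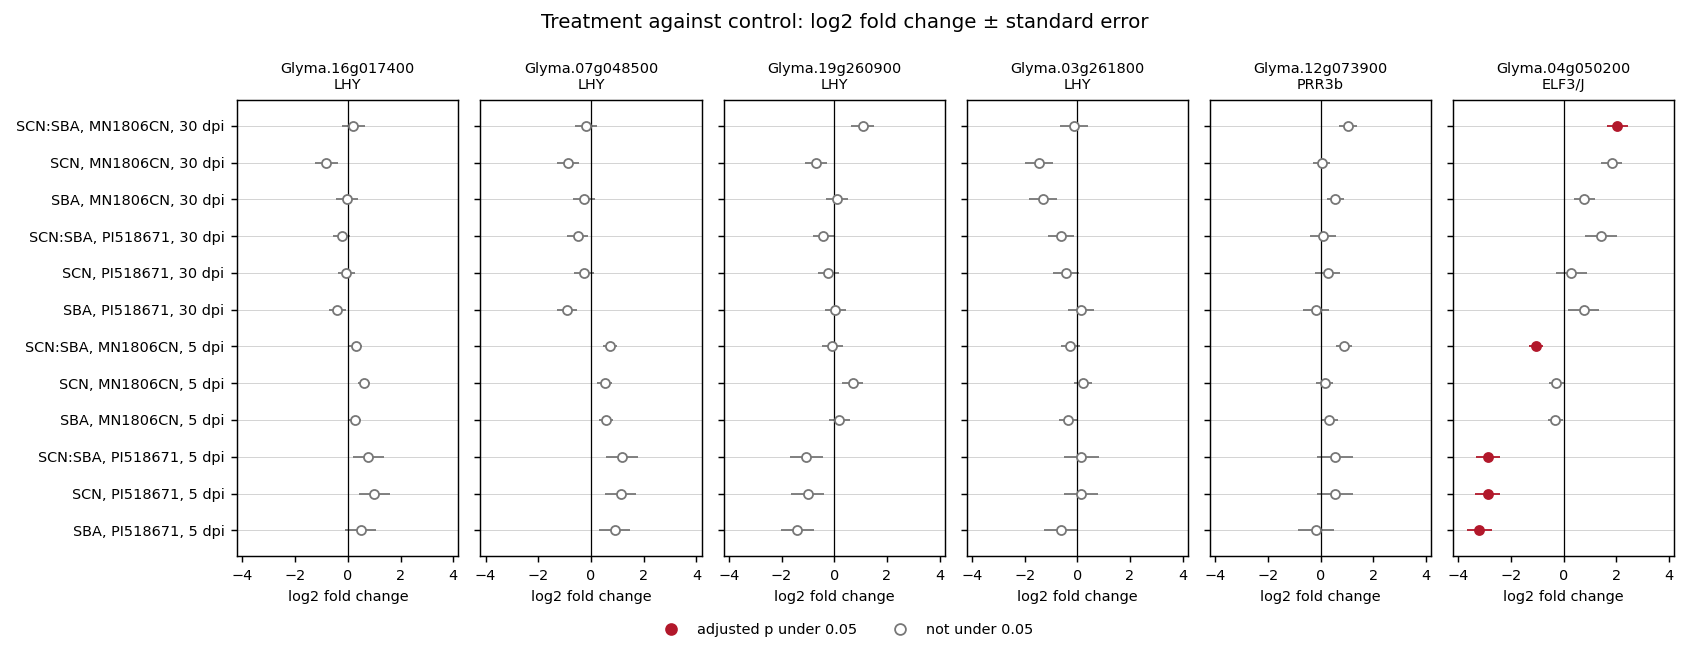
Log2 fold change of each treatment against the control of the same cultivar and time point, with its standard error (x axis), for the 6 clock genes (panels). Red filled points have an adjusted p under 0.05. The 5 red points are all ELF3/J: 3 in PI518671 at 5 dpi and 1 in MN1806CN at 5 dpi lie below 0, and 1 in MN1806CN at 30 dpi lies above 0.

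In MN1806CN at 5 dpi, ELF3/J was lower with both pests, by a smaller amount. It read 44.0, 30.1 and 52.7 CPM in SCN:SBA roots, 81.6, 61.0 and 72.4 CPM in SCN roots and 82.3, 52.0 and 75.5 CPM in SBA roots, against 88.3, 63.5 and 109 CPM in control roots. All SCN:SBA plants were below all control plants, whereas SCN and SBA plants overlapped with them. The log2 fold change was -1.05 ± 0.27 (adjusted p = 0.0412) for SCN:SBA, -0.28 ± 0.27 for SCN and -0.32 ± 0.27 for SBA. The first was 1 of 6 clock genes called where 7.43% of all genes were called, and for SCN (0.00464% of all genes) and SBA (0%) 0 clock genes were called.

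That call was close to the threshold. It was kept in 3 of 12 fits with 1 library left out, and was lost without any of the 3 SCN libraries, any of the 3 SCN:SBA libraries, control replicate 1 or 3, or SBA replicate 3, with adjusted p from 0.0501 to 0.171 and a log2 fold change between -1.26 and -0.85. It was also lost with all 47 libraries in 1 fit (adjusted p = 0.159) and with the 2 groups alone (0.0676). ELF3/J was -0.78 ± 0.27 for SCN:SBA against SCN and -0.74 ± 0.27 for SCN:SBA against SBA, and 0 clock genes were called there (0.0116% and 0.0162% of all genes). The plants of a group came from 3 blocks of the experiment, and whether the replicate number marks the block was not given in the sources used here. With the replicate number as a block, SCN:SBA against SCN was called (-0.81, adjusted p = 0.0339).

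PRR3b lay higher in the same MN1806CN roots with both pests. It read 60.2, 55.2 and 82.5 CPM in SCN:SBA roots and 29.5, 48.5 and 28.5 CPM in control roots at 5 dpi. The groups do not overlap, and the log2 fold change of 0.88 ± 0.32 was not called (adjusted p = 0.0953, and 0.0477 without control replicate 2, at 1.17). Glyma.07g048500 read 8.29, 5.20 and 6.48 CPM in SCN:SBA roots and 4.13, 4.54 and 3.41 CPM in control roots, which do not overlap either. It was not called (0.71 ± 0.27, adjusted p = 0.114). Groups this small can fail to overlap without a true difference. The other 3 LHY genes differed from control by -0.26 to 0.29 with both pests.

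At 30 dpi in MN1806CN, ELF3/J was higher with both pests. It read 47.7, 127 and 59.8 CPM in SCN:SBA roots, 67.0, 81.7 and 51.1 CPM in SCN roots and 35.2, 35.2 and 26.7 CPM in SBA roots, against 20.6 and 17.5 CPM in the 2 control roots. All treated plants were above both control plants. ELF3/J rose by 2.04 ± 0.41 with SCN:SBA (adjusted p = 0.00879) and was 1.82 ± 0.41 with SCN (adjusted p = 0.074) and 0.78 ± 0.39 with SBA (adjusted p = 0.518), neither of which was called. SCN:SBA was also above SBA, by 1.25 ± 0.35 (adjusted p = 0.0294), and differed from SCN by 0.22 ± 0.34.

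With 2 control plants these calls depended on single libraries. SCN:SBA against control was lost without control replicate 1 (adjusted p = 0.0550) or 2 (0.0798), where the single control left is taken to vary like the other groups, and with the 2 groups alone (0.0534). SCN against control was called without SCN:SBA replicate 1 (adjusted p = 0.0433) or 2 (0.0204) and by DESeq2 (9.36e-04). SCN:SBA against SBA was lost without SBA replicate 1, 2 or 3 (adjusted p of 0.0645, 0.0604 and 0.112), without SCN:SBA replicate 2 (0.0636, log2 fold change 0.73), in the fit of all 47 libraries (0.0615) and with the 2 groups alone (0.0789).

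One LHY gene was called among these treatments. Glyma.19g260900 read 6.50, 10.8 and 8.18 CPM in SCN:SBA roots of MN1806CN at 30 dpi, against 1.98, 3.95 and 1.39 CPM in SCN roots, with no overlap. It rose by 1.78 ± 0.39 on the log2 scale (adjusted p = 0.0208). The call was lost without SCN replicate 1 (adjusted p = 0.0869) or 3 (0.0750) and with the 2 groups alone (0.0634). It lay above control (4.60 and 3.39 CPM) and SBA roots (5.72, 3.15 and 3.88 CPM) too, by 1.08 ± 0.43 and 0.98 ± 0.38, neither of which was called.

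All 6 clock genes had a positive fold change for SCN:SBA against SCN in MN1806CN at 30 dpi, with a median of 1.01 against 0.018 over all genes. The 6 values come from the same plants, and genes of an LHY pair share reads, so they are not independent of each other. The 4 LHY genes were 1.02 ± 0.39 (Glyma.16g017400), 0.70 ± 0.38 (Glyma.07g048500), 1.78 ± 0.39 (Glyma.19g260900) and 1.33 ± 0.49 (Glyma.03g261800), and PRR3b was 1.00 ± 0.29 (adjusted p = 0.0558). PRR3b read 75.7, 96.8 and 48.3 CPM in SCN:SBA roots and 41.6, 44.2 and 22.9 CPM in SCN roots. It was called by DESeq2 (adjusted p = 0.0141) and without SCN:SBA replicate 3 (0.0346), and Glyma.16g017400 was called without SCN replicate 2 (1.52, adjusted p = 0.0469). Against control, PRR3b was 1.04 ± 0.33 (adjusted p = 0.0571, and 0.0477 with the replicate block, 0.0176 by DESeq2, 0.0379 without SCN replicate 3 and 0.0225 without SCN:SBA replicate 3).

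Counted over all 6 genes in MN1806CN at 30 dpi, 1 was called for SCN:SBA against control (14.6% of all genes), 1 for SCN:SBA against SCN (8.28%) and 1 for SCN:SBA against SBA (17.3%). For SCN against control and SBA against control 0 were called (0.57% and 0% of all genes). One of 6 genes is a share that so small a list cannot set apart from these backgrounds.

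In PI518671 at 30 dpi, 0 clock genes were called in any of the 5 treatment comparisons, where 1.02% of all genes were called for SCN:SBA against control, 0.357% for SCN, 0.00696% for SBA, 0% for SCN:SBA against SCN and 0% for SCN:SBA against SBA. ELF3/J read 32.2, 66.3 and 64.3 CPM in SCN:SBA roots, 18.0, 36.3 and 18.8 CPM in SCN roots and 11.9, 15.3 and 74.7 CPM in SBA roots, against 14.9, 22.3 and 23.8 CPM in control roots. All SCN:SBA plants were above all control plants, and SBA replicate 3 stood far above the other 2 SBA plants. SCN:SBA against control was 1.41 ± 0.59 (adjusted p = 0.229, and 0.0237 with the 2 groups alone).

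SBA replicate 3 moved several of these values. Without it ELF3/J was called for SCN:SBA against control (1.41, adjusted p = 0.0236) and for SCN:SBA against SBA (1.94, adjusted p = 0.00703, against 0.65 ± 0.58 with it). PRR3b for SCN:SBA against SBA was 1.17 (adjusted p = 0.0301) without it and 0.27 ± 0.48 with it, and Glyma.16g017400 for SBA against control was -0.89 (adjusted p = 0.0428) without it and -0.40 ± 0.32 with it. In that library PRR3b (75.5 CPM), Glyma.16g017400 (39.8 CPM) and Glyma.19g260900 (3.79 CPM) were also the highest of the 3 SBA plants.

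The design also asks whether the aphid effect differed in the presence of the nematode. The SCN-by-SBA difference, the SBA effect with SCN minus the SBA effect without it, was called for 1 clock gene in 1 of 4 settings. For ELF3/J in PI518671 at 5 dpi it was 3.21 ± 0.62 on the log2 scale (adjusted p = 0.0305, 1.68% of all genes called), that is, SBA changed ELF3/J by 0.01 in plants with SCN and by -3.20 in plants without it. In MN1806CN at 5 dpi (0.00464% of all genes), MN1806CN at 30 dpi (0.153%) and PI518671 at 30 dpi (0%), 0 clock genes were called, with ELF3/J at -0.46 ± 0.38, -0.56 ± 0.51 and 0.37 ± 0.82. The largest of the other values was 2.64 ± 0.72 for Glyma.03g261800 in MN1806CN at 30 dpi (adjusted p = 0.13, and 0.0212 by DESeq2), where SCN:SBA roots read 2.92, 4.48 and 3.04 CPM, SCN roots 1.23, 2.09 and 0.758 CPM, SBA roots 1.82, 0.987 and 1.72 CPM and control roots 5.78 and 1.82 CPM. Without control replicate 1 it was 1.57 (adjusted p = 0.379) and without control replicate 2 it was 3.24 (adjusted p = 0.228).

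The call for ELF3/J rested on the whole set of libraries. It was kept in 2 of 12 fits with 1 library left out, those without control replicate 1 and without SCN:SBA replicate 3, at 3.59 in the first. Without control replicate 2 or 3, or any SBA, any SCN or SCN:SBA replicate 1 or 2, the adjusted p was 0.0558 to 0.0920 and the difference 2.85 to 3.54. With the replicate block it was 3.16 and was not called (adjusted p = 0.0652).

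The next comparison was that of the SCN-resistant with the SCN-susceptible cultivar. Reads of both cultivars were quantified on transcripts of Williams 82, which is PI518671, and the part of that in the differences was not tested. ELF3/J differed between the cultivars at 5 dpi, in opposite directions in treated and control roots. Its mean in SCN roots was 71.6 ± 10.3 CPM in MN1806CN and 28.3 ± 10.5 CPM in PI518671, in SBA roots 69.9 ± 15.9 CPM in MN1806CN and 23.2 ± 2.03 CPM in PI518671, and in control roots 87.1 ± 23.0 CPM in MN1806CN and 203.9 ± 101.9 CPM in PI518671 (SD, n = 3 each). The SCN and SBA groups of the 2 cultivars do not overlap, whereas the control groups do. The log2 fold change of MN1806CN over PI518671 was 1.29 ± 0.36 in SCN roots (adjusted p = 0.0341), 1.60 ± 0.36 in SBA roots (adjusted p = 0.0182) and -1.25 ± 0.36 in control roots (adjusted p = 0.0162), and 0.59 ± 0.36 in SCN:SBA roots (adjusted p = 0.598).

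The share of all genes called was 7.72% in SCN roots, 3.65% in SBA roots and 22.5% in control roots, with 1 clock gene called in each, and 0.851% in SCN:SBA roots, with 0. The call in SCN roots was lost without any of the 3 MN1806CN SCN libraries or PI518671 SCN replicate 1 or 3 (adjusted p up to 0.127). The call in SBA roots was lost without MN1806CN SBA replicate 1 or 3 or any PI518671 SBA library (up to 0.108). The call in control roots was lost without MN1806CN control replicate 2 or PI518671 control replicate 2 or 3 (up to 0.114, at -0.91) and with the 2 groups alone (0.137), and without PI518671 control replicate 1 it was -1.62.

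The response of ELF3/J to treatment differed between cultivars at 5 dpi when that difference was tested as an interaction. The change against control in MN1806CN minus that in PI518671 was 1.84 ± 0.51 for SCN:SBA (adjusted p = 0.0209), 2.54 ± 0.51 for SCN (adjusted p = 0.00405) and 2.85 ± 0.51 for SBA (adjusted p = 0.00294), where 13.3%, 12.5% and 9.24% of all genes were called and 1 of the 6 clock genes each. The values for SCN and SBA kept their calls without any 1 of the 24 libraries, and ran from 2.25 to 2.97 and from 2.51 to 3.22 with 1 PI518671 control library left out. That for SCN:SBA was lost without MN1806CN control replicate 2 (adjusted p = 0.0538), MN1806CN SCN:SBA replicate 3 (0.0558) or PI518671 control replicate 2 (0.0522) or 3 (0.0849, at 1.48). At 30 dpi 0 clock genes were called for SCN:SBA (3.89% of all genes), SCN (0.0278%) or SBA (0%), and ELF3/J was 0.65 ± 0.78, 1.55 ± 0.79 and 0.03 ± 0.78. Without PI518671 SBA replicate 3, PRR3b was called for SBA (1.64, adjusted p = 0.0396, against 0.74 ± 0.63 with it).

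At 30 dpi the cultivars differed in 1 LHY pair, in roots with both pests. Glyma.19g260900 read 6.50, 10.8 and 8.18 CPM in MN1806CN SCN:SBA roots, against 1.48, 1.48 and 3.04 CPM in PI518671 SCN:SBA roots. Glyma.03g261800 read 2.92, 4.48 and 3.04 CPM in MN1806CN, against 0.477, 0.740 and 1.70 CPM in PI518671. Neither gene overlapped between the cultivars. The log2 fold changes were 2.07 ± 0.41 (adjusted p = 8.8e-04) and 1.82 ± 0.51 (adjusted p = 0.0109). Thus 2 of 6 clock genes were called where 29.4% of all genes were. The 2 genes share reads, and so small a list cannot set this share apart from that background. The call of Glyma.19g260900 held in all 23 fits with 1 library left out. That of Glyma.03g261800 was lost without PI518671 SCN:SBA replicate 1 (adjusted p = 0.0609) or 2 (0.0541).

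Their partner LHY pair did not reach the threshold in those roots, with 0.68 ± 0.37 for Glyma.16g017400 and 0.15 ± 0.39 for Glyma.07g048500. Because 2 LHY genes of a pair share reads, their counts were also summed. The summed pair of Glyma.19g260900 and Glyma.03g261800, which gives 1 test, was called in SCN:SBA roots. In SCN roots (19.5% of all genes), SBA roots (17.9%) and control roots (6.76%) at 30 dpi, 0 clock genes were called.

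ELF3/J in SCN roots at 30 dpi was 1.42 ± 0.52 (MN1806CN over PI518671, adjusted p = 0.0647). It was called with all 47 libraries in 1 fit (adjusted p = 0.0330), with the 2 groups alone (0.00755), with the replicate block (0.0476), by DESeq2 (0.0307) and without SCN:SBA replicate 1 or 2 of MN1806CN or any SBA library of PI518671 (0.00820 to 0.0488). In SBA roots ELF3/J was -0.10 ± 0.52, and 1.19 (adjusted p = 0.0304) without PI518671 SBA replicate 3. Without that library the SBA comparison was also called for Glyma.16g017400 (1.08, adjusted p = 0.0303) and PRR3b (1.29, adjusted p = 0.00895).

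**Figure D3:**
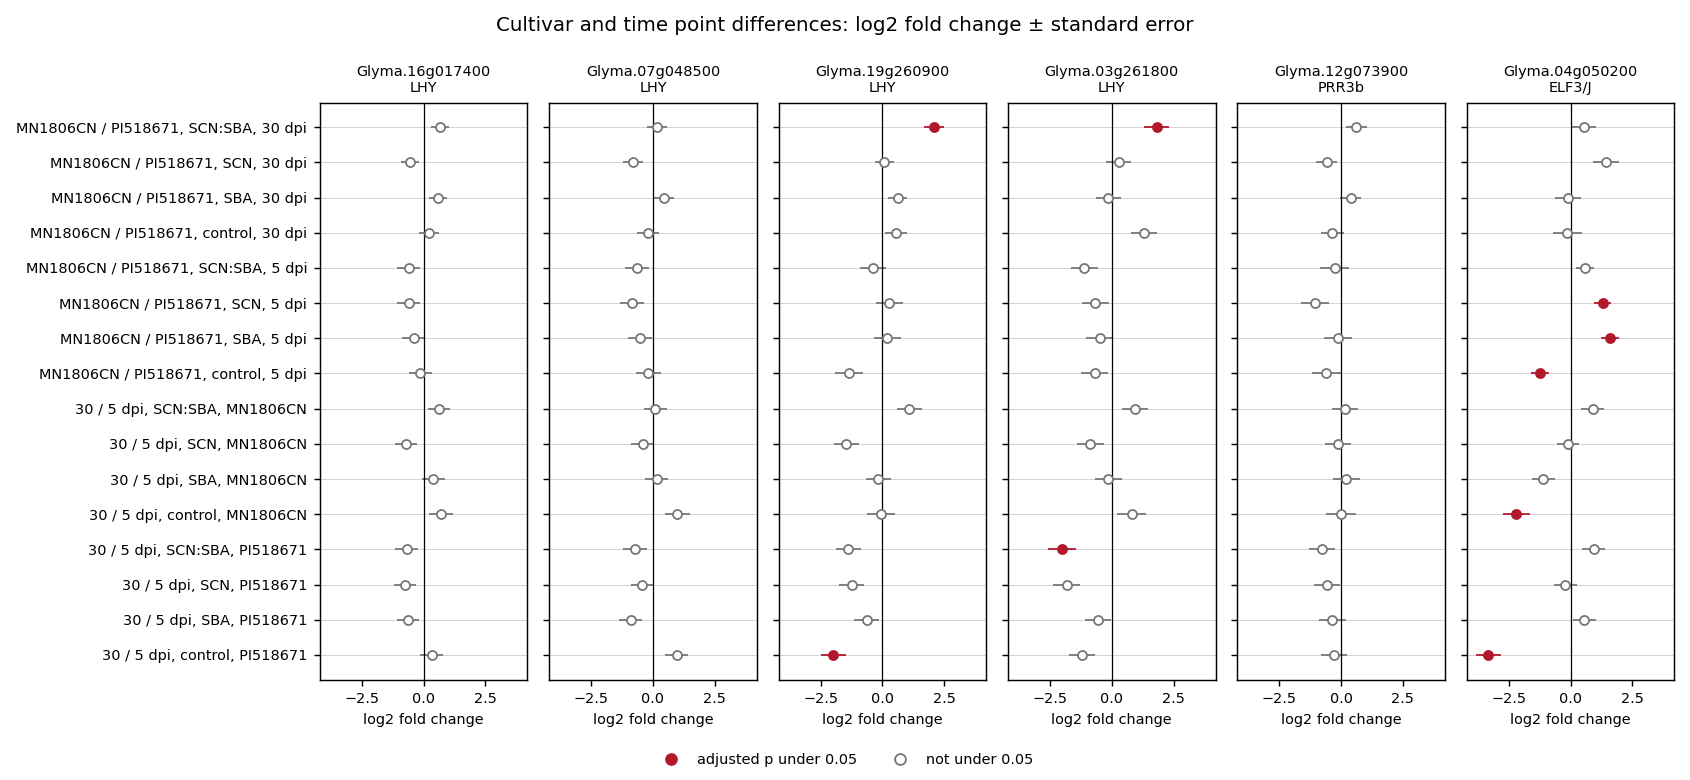
Log2 fold change with its standard error (x axis) for MN1806CN over PI518671 (upper 8 lines) and for 30 over 5 dpi (lower 8 lines), for the 6 clock genes (panels). Red filled points have an adjusted p under 0.05. ELF3/J carries 5 of the 9 red points, Glyma.19g260900 and Glyma.03g261800 carry 2 each, and Glyma.16g017400, Glyma.07g048500 and PRR3b carry 0.

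The last comparison was 30 against 5 dpi, in which time point and water bath cannot be told apart. ELF3/J fell in control roots of both cultivars. In MN1806CN control roots it read 20.6 and 17.5 CPM at 30 dpi, against 88.3, 63.5 and 109 CPM at 5 dpi, and in PI518671 control roots 14.9, 22.3 and 23.8 CPM at 30 dpi, against 90.5, 233 and 288 CPM at 5 dpi. The time points do not overlap in either cultivar. The log2 fold change was -2.20 ± 0.56 in MN1806CN (adjusted p = 0.00436, 21.0% of all genes called) and -3.33 ± 0.50 in PI518671 (adjusted p = 2.02e-06, 40.4% of all genes called). The second held without any 1 of the 47 libraries (-3.68 to -2.94 without 1 of the PI518671 control libraries of 5 dpi), and the first was lost without MN1806CN control replicate 1 (adjusted p = 0.0501) or 2 (0.0615) of 30 dpi.

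In treated roots the time difference of ELF3/J ran from -1.11 ± 0.47 (SBA, MN1806CN) to 0.93 ± 0.46 (SCN:SBA, PI518671), and was not called. In MN1806CN SBA roots it read 35.2, 35.2 and 26.7 CPM at 30 dpi, against 82.3, 52.0 and 75.5 CPM at 5 dpi, with no overlap. That difference was called with the 2 groups alone (adjusted p = 0.0197) and without PI518671 SBA 30 dpi replicate 3 (0.0272), against 0.0883 with all libraries. Whether the time difference itself differed between treated and control roots was not tested.

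Glyma.19g260900 and Glyma.03g261800 each fell at 30 dpi in 1 of the 4 groups of PI518671, and not in the same one. Glyma.19g260900 read 2.21, 3.28 and 2.46 CPM in control roots at 30 dpi, against 4.89, 7.06 and 19.7 CPM at 5 dpi, and fell by 1.99 on the log2 scale (SE 0.51, adjusted p = 0.00211). The time points do not overlap, and the call was lost without control replicate 3 of 5 dpi (-1.09, adjusted p = 0.106). Glyma.03g261800 read 0.477, 0.740 and 1.70 CPM in SCN:SBA roots at 30 dpi, against 6.22, 4.56 and 1.07 CPM at 5 dpi, which overlap, and fell by 2.02 on the log2 scale (SE 0.55, adjusted p = 0.0215). That call was lost without replicate 1 or 2 of either time point (adjusted p from 0.0663 to 0.137) and with the 2 groups alone (0.203).

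The same pair was near the threshold in other groups. Glyma.19g260900 was -1.46 ± 0.51 in MN1806CN SCN roots (adjusted p = 0.0519, under 0.05 in 21 of 47 fits with 1 library left out, 0.0331 by DESeq2 and 0.0398 with the 2 groups alone) and -1.38 ± 0.51 in PI518671 SCN:SBA roots (adjusted p = 0.112, and 0.0479 without replicate 3 of 5 dpi). Glyma.03g261800 was -1.21 ± 0.54 in PI518671 control roots (adjusted p = 0.0729, 0.0183 without control replicate 1 of 5 dpi, 0.0485 without SCN:SBA replicate 3 of 5 dpi and 0.0452 by DESeq2, but -0.41 and 0.639 without control replicate 3 of 5 dpi). With the counts of the pair summed, it was called in PI518671 control roots (-1.75, adjusted p = 0.00446) and in PI518671 SCN:SBA roots (-1.62, adjusted p = 0.0432).

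The other LHY pair and PRR3b were not called between time points, with log2 fold changes of -0.76 to 0.71 for Glyma.16g017400, -0.91 to 0.99 for Glyma.07g048500 and -0.77 to 0.21 for PRR3b. Glyma.07g048500 in PI518671 control roots was 0.96 ± 0.47 (adjusted p = 0.108, and 0.0474 without PI518671 SBA 30 dpi replicate 2). By comparison, 1 clock gene was called in MN1806CN control and PI518671 SCN:SBA roots (5.72% of all genes in the second), 2 in PI518671 control roots, and 0 in MN1806CN SCN:SBA (3.99% of all genes), SCN (13.7%) and SBA roots (20.5%) and in PI518671 SCN (0.148%) and SBA roots (15.3%).

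The relation between the genes was followed over libraries. Over all 47 libraries, on the log2(CPM + 1) scale, 11 of 15 gene pairs had a positive Pearson r with an adjusted p under 0.05 (permutation test, two-sided, Benjamini-Hochberg over 15 pairs). The 4 others all involved ELF3/J. How often pairs of other genes reach such r was not counted, and ranks among 34388 genes are given below. Libraries of a group share cultivar, treatment and time point, so r was also computed within each time point and on the deviations of libraries from their group means, where libraries were permuted within groups.

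Glyma.16g017400 and Glyma.07g048500, which share reads, had r = 0.869 (Spearman rho = 0.806, permutation p = 1e-05 for both, the smallest that 100000 permutations give, adjusted p = 3.7e-05). The value was 0.839 without the 2 libraries farthest from the median, 0.915 within 5 dpi (n = 24), 0.801 within 30 dpi (n = 23) and 0.886 on deviations. Of 34388 genes compared, Glyma.07g048500 ranked 1 for Glyma.16g017400, and the reverse also held. Glyma.19g260900 and Glyma.03g261800, which share reads as well, had r = 0.789 (rho = 0.796, permutation p = 1e-05), 0.742 without the 2 farthest libraries, 0.732 within 5 dpi, 0.774 within 30 dpi and 0.786 on deviations. Glyma.19g260900 ranked 1 of 34388 for Glyma.03g261800, and Glyma.03g261800 ranked 36 for Glyma.19g260900.

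PRR3b, whose shared reads were traced to Glyma.U034500_1 and not to LHY genes, had a positive r with all 4 LHY genes. With Glyma.16g017400 it had r = 0.773 (rho = 0.729, permutation p = 1e-05, adjusted p = 3.7e-05), 0.760 without the 2 farthest libraries, 0.768 within 5 dpi, 0.783 within 30 dpi and 0.831 on deviations. It ranked 12 among the 34388 genes for Glyma.16g017400, which in turn ranked 648 for PRR3b, and on deviations the ranks were 153 and 1350. With Glyma.07g048500 it had r = 0.753 (rho = 0.676, adjusted p = 3.7e-05), 0.708 without the 2 farthest libraries, 0.826 within 5 dpi and 0.824 on deviations. Within 30 dpi r was 0.636 (adjusted p = 0.0038), whereas rho was 0.387 with an adjusted p of 0.11 for rho. The value within 30 dpi rests on the 2 farthest libraries, without which it was 0.216. With Glyma.19g260900 r was 0.471 (rho = 0.409, adjusted p = 0.0013) and with Glyma.03g261800 0.511 (rho = 0.465, adjusted p = 3.6e-04), and 0.594 and 0.608 on deviations. Within 5 dpi these were 0.386 (adjusted p = 0.084) and 0.588, and within 30 dpi 0.601 (0.537 without the 2 farthest libraries) and 0.423 (adjusted p = 0.068). Over all libraries Glyma.19g260900 and Glyma.03g261800 ranked 4878 and 4219 of the 34388 genes for PRR3b. In turn PRR3b ranked 4769 and 617 for them. The order of the LHY genes thus changed with the libraries used, and the difference between these r values was not tested.

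**Figure D4:**
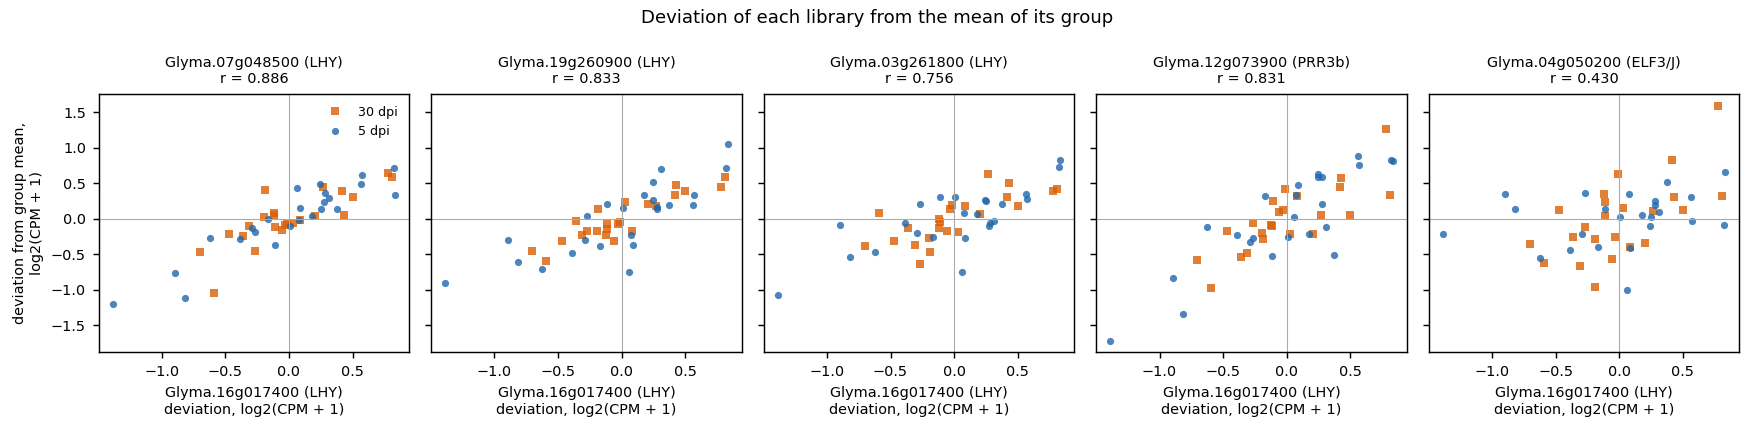
Deviation of each library from its group mean, on the log2(CPM + 1) scale, for Glyma.16g017400 (x axis) and each of the other 5 clock genes (y axis, panels), with 30 dpi as squares and 5 dpi as circles. Pearson r over 47 libraries is 0.886 with Glyma.07g048500, 0.833 with Glyma.19g260900, 0.756 with Glyma.03g261800, 0.831 with PRR3b and 0.430 with ELF3/J.

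The 3 plants farthest below their group means in Glyma.16g017400 were also the lowest of their groups in several of the others. PI518671 SCN:SBA replicate 3 at 5 dpi read 13.8 CPM for Glyma.16g017400, 3.26 for Glyma.07g048500, 2.01 for Glyma.19g260900, 1.07 for Glyma.03g261800 and 17.9 for PRR3b, the lowest of its group in all 5, and 24.0 CPM for ELF3/J, also the lowest. PI518671 SBA replicate 1 at 5 dpi read 19.7, 2.97, 2.25, 1.23 and 15.6 CPM for the same 5 genes in that order, again the lowest of its group, and 25.5 CPM for ELF3/J, the highest of its group. PI518671 control replicate 2 at 5 dpi was lowest in Glyma.16g017400 (12.2 CPM), Glyma.07g048500 (2.09 CPM) and PRR3b (26.9 CPM), but not in Glyma.19g260900 (7.06 CPM), Glyma.03g261800 (2.81 CPM) or ELF3/J (233 CPM).

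ELF3/J was related differently to the LHY genes across groups and within them. Over all libraries it had r = -0.056 with Glyma.16g017400 (rho = -0.033, adjusted p = 0.71), -0.272 with Glyma.07g048500 (rho = -0.301, adjusted p = 0.079), 0.120 with PRR3b (adjusted p = 0.45), 0.259 with Glyma.03g261800 (adjusted p = 0.088) and 0.531 with Glyma.19g260900 (rho = 0.448, adjusted p = 1.7e-04). The last was 0.375 without the 2 farthest libraries. Within 5 dpi r with Glyma.07g048500 was -0.507 (adjusted p = 0.017, and -0.348 without the 2 farthest libraries) and within 30 dpi 0.028 (adjusted p = 0.90). On deviations r was 0.430 with Glyma.16g017400, 0.248 with Glyma.07g048500, 0.524 with Glyma.19g260900, 0.538 with Glyma.03g261800 and 0.369 with PRR3b, and 13 of the 15 pairs of clock genes had an adjusted p under 0.05. The 2 pairs that did not were those of ELF3/J with Glyma.07g048500 (0.33) and PRR3b (0.087). By r on deviations, ELF3/J ranked 7645, 3243 and 2496 of 34388 genes for Glyma.16g017400, Glyma.19g260900 and Glyma.03g261800.

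**Figure D5:**
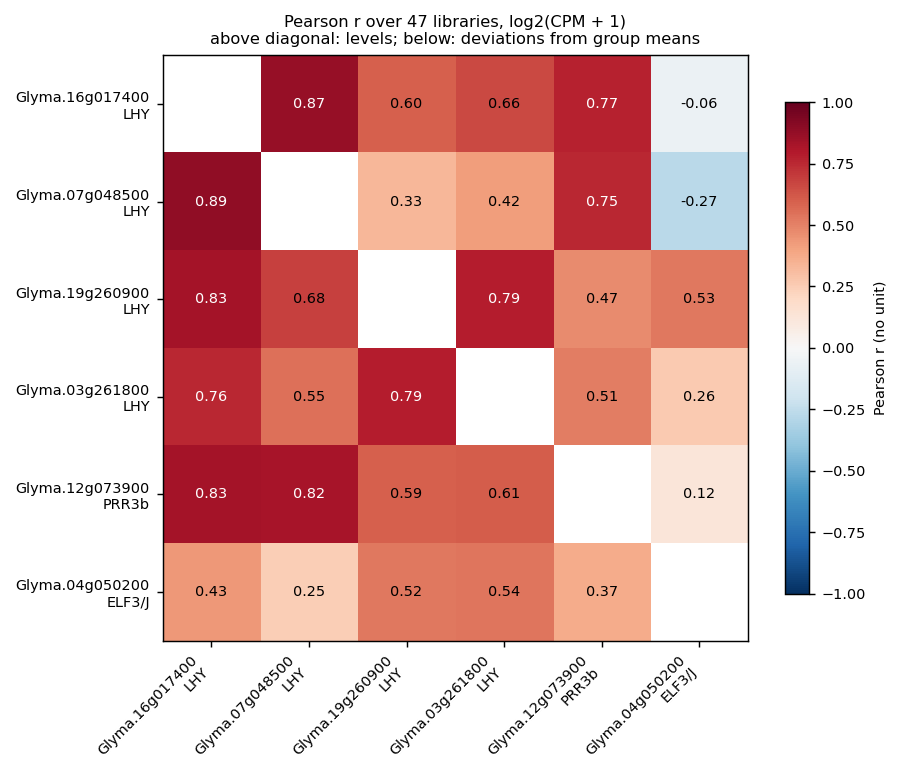
Pearson r between the 6 clock genes over 47 libraries on the log2(CPM + 1) scale. Cells above the diagonal use the levels and cells below it the deviations from group means. On levels r ranges from -0.27 to 0.87 and on deviations from 0.25 to 0.89.

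The ratio between genes was compared across groups as a description, with no reading of its absolute size. The log2 ratio of Glyma.16g017400 to Glyma.07g048500 had an SD of 0.341 over the 47 libraries. The log2 ratio of the summed LHY genes to PRR3b had an SD of 0.441, and its mean differed little between 30 dpi (-0.083) and 5 dpi (-0.071) or between MN1806CN (-0.058) and PI518671 (-0.096). Its group means differed more, from -0.651 in MN1806CN SCN:SBA roots at 5 dpi to 0.605 in MN1806CN control roots at 30 dpi (n = 2). The log2 ratio of the summed LHY genes to ELF3/J was more variable, with an SD of 1.17 and group means from -2.17 in PI518671 control roots at 5 dpi to 1.51 in MN1806CN control roots at 30 dpi. The 3 PI518671 control libraries of 5 dpi had ratios of -1.29, -3.27 and -1.95, and their mean ran from -2.61 to -1.62 with 1 of them left out.

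The balance of the 2 LHY pairs is given as a description, with no test. The log2 ratio of the pair on chromosomes 16 and 7 to the pair on chromosomes 19 and 3 averaged 2.99 ± 0.52 at 30 dpi (SD, n = 23) and 2.38 ± 0.62 at 5 dpi (n = 24), or 2.54 ± 0.36 (n = 21) without the PI518671 control group. The ranges of the 2 time points overlap, with 1.85 to 3.85 at 30 dpi and 0.533 to 3.003 at 5 dpi. At 30 dpi it was 2.64 ± 0.37 in MN1806CN (n = 11) and 3.32 ± 0.43 in PI518671 (n = 12). The lowest group mean was 1.24 ± 0.93, in PI518671 control roots at 5 dpi (0.72 to 1.60 with 1 library left out), and the next lowest 2.14 ± 0.27, in MN1806CN SCN:SBA roots at 30 dpi. The highest was 3.64 ± 0.36, in PI518671 SCN:SBA roots at 30 dpi (n = 3 each).

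Among 34383 other genes with a mean of at least 1 CPM, those with the pattern most like a clock gene over the 47 libraries were Glyma.U034500_1, with r = 0.961 to PRR3b, with which it shares reads, and Glyma.05g047700, with r = 0.951 to ELF3/J. The lowest r were -0.893, between ELF3/J and Glyma.02g034700, and -0.883, between PRR3b and Glyma.11g099300. None of these identifiers could be paired with a gene name here. The other genes of the clock were not analysed here for the same reason.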

How the data were processed

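RNA of whole soybean roots was sequenced as single-end reads in 47 libraries. The authors trimmed the reads and quantified them with Salmon 0.9.1 against 1 primary transcript a gene (annotation Wm82.a2.v1), after quality control with FastQC 0.11.3 and MultiQC 1.3. The authors deposited these values as estimated counts per gene, neither normalized nor filtered, of which 42.7% were fractional, and they were rounded to whole numbers here. Columns were assigned to groups by the sample titles, and 0 columns were left out. Reads of the same sequence in several genes are split by Salmon, which bears on the LHY genes and PRR3b.

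Genes with at least 0.5 CPM in at least 1 library (43122) were tested with edgeR 4.0.16 in R 4.3.3 (glmQLFit and glmQLFTest, TMM, Benjamini-Hochberg over all genes tested, called at adjusted p under 0.05). Treatment comparisons and SCN-by-SBA differences used the libraries of their cultivar and time point, cultivar comparisons and interactions those of their time point, and time comparisons all 47. Standard errors were approximated from the fold change and its F statistic. Correlations used log2(CPM + 1) and 100000 permutations (Python 3.11.15, numpy 2.4.6, pandas 2.3.3). Figures were drawn with matplotlib 3.10.9.

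Alternatives were RLE size factors, no filter, filterByExpr, DESeq2 1.42.0, a replicate block, 1 fit of all libraries, the 2 groups alone, each library left out, log2(CPM + 4), and the summing of genes that share reads, which was added after the data were seen. With a library left out of the fit of all 47, the dispersion trend of the full fit was kept. All 6 clock genes were named in every comparison, and of the other genes the 2 with the highest and the 2 with the lowest r to a clock gene, as no table paired the identifiers with names. Lists of other clock genes and of cell type markers that were to be found by annotation could not be formed. The 6 genes, the lists and the tests were chosen with earlier results of these data known. Replicates are separate plants from 3 blocks of the experiment, and no 2 libraries of a group agreed within counting noise.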

Additional observations from a re-analysis of the deposited data

Results flagged for a closer look

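ELF3/J (Glyma.04g050200) is listed here because its changes differed between groups by a test of the difference itself (edgeR quasi-likelihood test, Benjamini-Hochberg over 43122 genes). At 5 dpi its change against control in MN1806CN minus that in PI518671 was 1.84 for SCN:SBA (adjusted p = 0.0209), 2.54 for SCN (adjusted p = 0.00405) and 2.85 for SBA (adjusted p = 0.00294) on the log2 scale. In PI518671 at 5 dpi its SBA effect with SCN minus that without SCN was 3.21 (adjusted p = 0.0305). All 4 values rest on the PI518671 control group at 5 dpi, which read 90.5, 233 and 288 CPM. The 3 interaction values share that group and the MN1806CN control group (88.3, 63.5 and 109 CPM), so they are not independent of each other.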

How the results depend on the processing

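No count of clock genes called changed with RLE size factors, without a filter or with filterByExpr. The 7 calls against or between treatments were 9 with the replicate block, 7 in 1 fit of all libraries, 5 with the 2 groups alone, 8 with shared-read partners summed and 10 by DESeq2. The 1 call among SCN-by-SBA differences was 0 with the replicate block (ELF3/J 3.16, adjusted p = 0.0652) and 2 by DESeq2, the 5 cultivar calls were 5 to 7 over these settings, the 3 cultivar-by-treatment calls were 3 in each setting, and the 4 time calls were 4 to 6. SCN-by-SBA and cultivar-by-treatment differences need more than 2 groups and were not run with the 2 groups alone. With shared-read partners summed, each LHY pair was 1 test, whose call was counted for each of its 2 genes. With 1 library left out, the counts ran from 6 to 11 for treatments, 0 to 1 for SCN-by-SBA differences, 4 to 9 for cultivars, 2 to 4 for cultivar-by-treatment differences and 3 to 7 for time. The highest counts for treatments and cultivars came without PI518671 SBA 30 dpi replicate 3, and for time without PI518671 SCN:SBA 5 dpi replicate 3. PRR3b for SCN:SBA against SBA in PI518671 at 30 dpi ran from -0.0934 to 1.17 (also -0.0760 without SCN:SBA replicate 3), and ELF3/J for MN1806CN against PI518671 in SBA roots at 30 dpi from -0.49 to 1.19, with 0.0424 under the replicate block and 0.0187 without MN1806CN SBA replicate 3, against 0.27 and -0.10 with all libraries. For the replicate block, deviations of same-numbered libraries had a mean r of 0.191 in MN1806CN at 5 dpi (-0.097 for other pairs), -0.105 in MN1806CN at 30 dpi (0.052), -0.087 in PI518671 at 5 dpi (0.041) and -0.001 in PI518671 at 30 dpi (0.0), and single pairs ran from -0.524 to 0.533, so whether the numbers mark the blocks of the experiment could not be settled. Of the 15 correlations, 11 were positive with an adjusted p under 0.05 on levels, 9 within 5 dpi (besides 1 negative), 8 within 30 dpi, 13 on deviations and 10 on log2(CPM + 4). Groups of 2 or 3 plants and, for Glyma.03g261800, counts of 10 to 267 a library limit the precision. The cause of these changes was not tested.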
